A study of Laetiporus sulphureus with 6 samples.

Results

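The flavin oxidoreductases of *Laetiporus sulphureus* described here were the genes whose domain in the study's gene list is AA3_2 or AA7, the names of 2 groups of auxiliary activity enzymes in the CAZy classification of carbohydrate-active enzymes. All 25 listed AA3_2 genes and all 7 listed AA7 genes were among the 10015 genes of the count table, so that 32 members were measured and none was lost. The domain check held for each of them, since every AA3_2 gene carried the N-terminal GMC oxidoreductase domain of Pfam, 6 of the AA7 genes carried a FAD-binding domain and the remaining AA7 gene, g1150, carried a berberine bridge enzyme domain.

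AA3_2 enzymes belong to the glucose-methanol-choline (GMC) oxidoreductases. They hold FAD and take electrons from aryl alcohols or sugars, and pass them either to molecular oxygen, which gives hydrogen peroxide, or to quinones and other acceptors. AA7 enzymes are oligosaccharide oxidases and dehydrogenases that use FAD as well, and they turn the reducing end of a sugar into a lactone. In brown-rot fungi, hydrogen peroxide and reduced iron together drive the Fenton reaction, whose hydroxyl radicals attack the plant cell wall. The substrate of each gene described here is not known from these data.

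The study compared strain ATCC 52600 before and after contact with plant biomass. The T0 group was mycelium of the pre-inoculum, grown from 15 agar discs of 8 mm in 100 mL of liquid medium for 7 days at 30 °C and 180 rpm. The BIN group was mycelium grown likewise, then washed and moved into 100 mL of mineral medium with 1 g of in natura (untreated) sugarcane bagasse for 24 h at 30 °C and 180 rpm. Each group had 3 RNA-seq libraries of the same strain and genotype, and the labels do not say that they came from separate precultures, so that the p-values measure the spread between these libraries, which may be partly technical. The effect of fresh medium and the effect of bagasse cannot be told apart in this design, because no culture moved to medium without bagasse was analysed here. The libraries held 9541028 to 15331728 counts. The log2 CPM (counts scaled to the library total, here after TMM normalization and with a small prior count) of 2 libraries correlated at 0.993 to 0.995 within BIN and at 0.980 to 0.992 within T0. The lowest count of any member in any library was 24 for AA3_2 and 43 for AA7. Levels are given as transcripts per 1000000 transcripts (TPM), which are corrected for gene length and can be set side by side between genes. Changes are log2 fold changes of BIN over T0 from TMM-normalized counts, with a standard error (SE). The SE was computed back from the test statistic, as the absolute log2 fold change over the square root of F. A gene was called where its adjusted p did not exceed 0.05 in the quasi-likelihood test of edgeR, adjusted by Benjamini-Hochberg over the 10015 genes, and its level changed at least 2-fold.

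The called AA3_2 genes were all lower in BIN on TMM-normalized counts. Of its 25 genes, 11 fell and 0 rose, a share of 44.0% lower, where 14.5% of the 10015 genes were called lower, 11.3% higher and 25.9% in either direction. DESeq2 also called 0 of them higher, and at an unadjusted p under 0.05 in edgeR 3 lay above 0, namely g4217, g4523 and g9621, none of them by 2-fold. Of the 7 AA7 genes, 2 rose (28.6%), 1 fell (14.3%) and 4 were not called. The share that fell was close to the 14.5% of all genes, and the share that rose rests on 2 genes. The median log2 fold change was -0.49 over the AA3_2 genes and -0.61 over the AA7 genes, beside a median of 0.00 over all genes. On the log2(TPM + 1) scale the median of all genes was 0.40 and that of AA3_2 was -0.05, so the AA3_2 median lay below that of all genes on both scales while the sign of a small change depended on the scale. The difference between the subfamilies was not tested.

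The plot of levels by gene shows a wide spread inside each subfamily. In T0 the mean level of an AA3_2 gene ranged from 1.13 TPM for g11919 to 1431 TPM for g5357, and that of an AA7 gene from 3.65 TPM for g5558 to 1553 TPM for g9758.

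**Figure D1:**
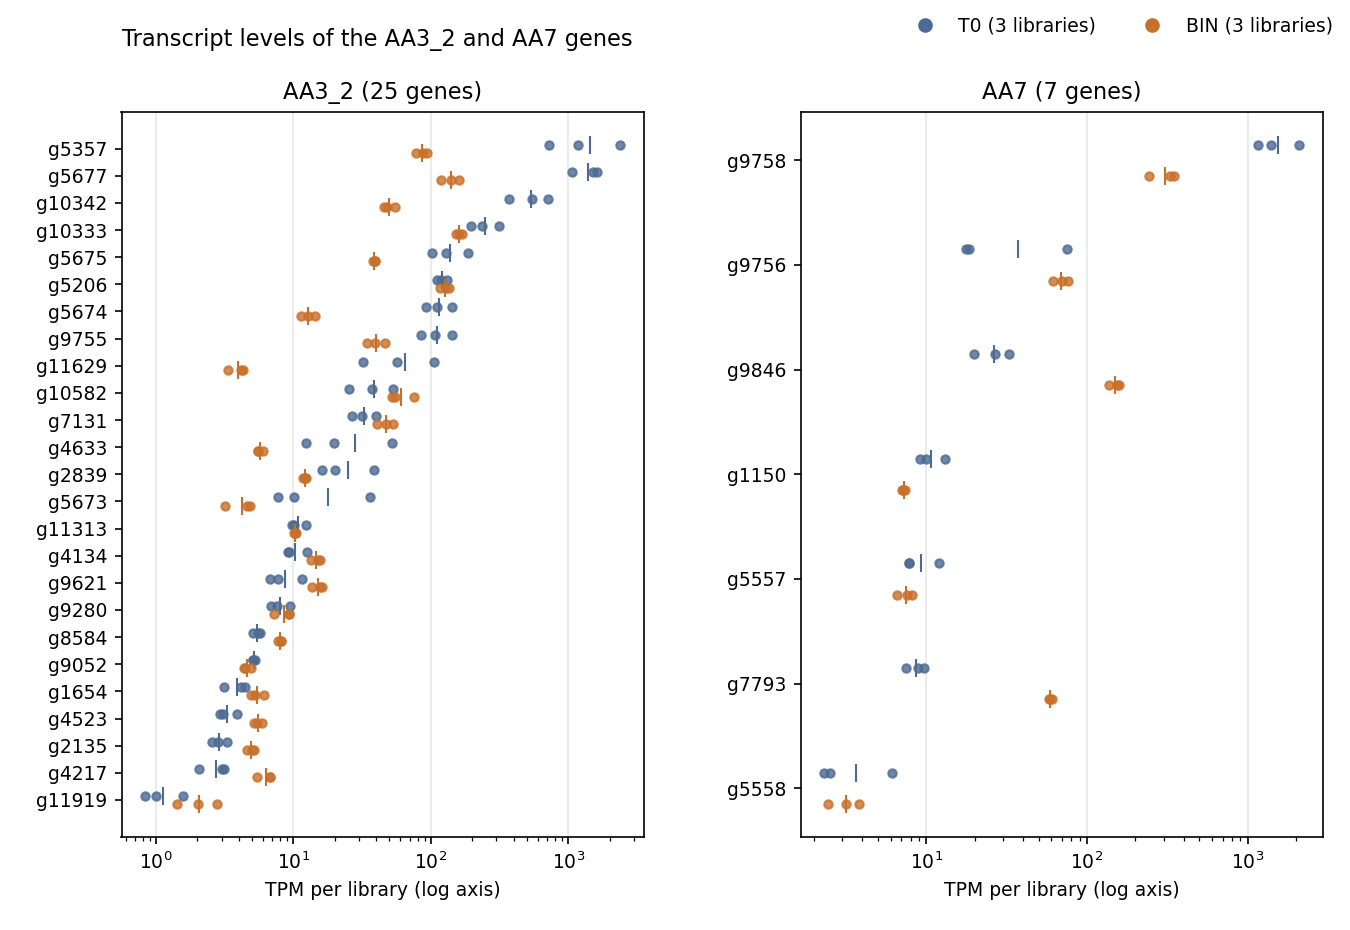
TPM of each AA3_2 gene (left) and AA7 gene (right) in every library, on log axes, with T0 libraries in blue, BIN libraries in orange and the mean of each group as a short vertical line. The 3 AA3_2 genes with the highest T0 means and the AA7 gene g9758 have the highest T0 levels of their subfamilies, and their orange points lie to the left of their blue ones.

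Summed over its 25 genes, AA3_2 held 3739, 5668 and 3715 TPM in T0 replicates 1, 2 and 3, and 908, 871 and 841.5 TPM in the BIN replicates. The sums of the 2 groups lay far apart, and T0 replicate 2 held the highest of them. The mean was 4374 ± 1120.5 TPM in T0 and 873 ± 33.1 TPM in BIN (SD, n = 3), a ratio of 5.01. Since TPM are shares of a library, that ratio depends on the scaling, and on TMM-normalized counts per kilobase it was 6.71. The AA7 genes summed to 2224, 1235 and 1488 TPM in T0 and to 660.2, 610.1 and 537 TPM in BIN. These groups did not overlap either, with means of 1649 ± 514 and 602 ± 62.1 TPM (SD, n = 3) and a ratio of 2.74, or 3.77 per kilobase with TMM.

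**Figure D2:**
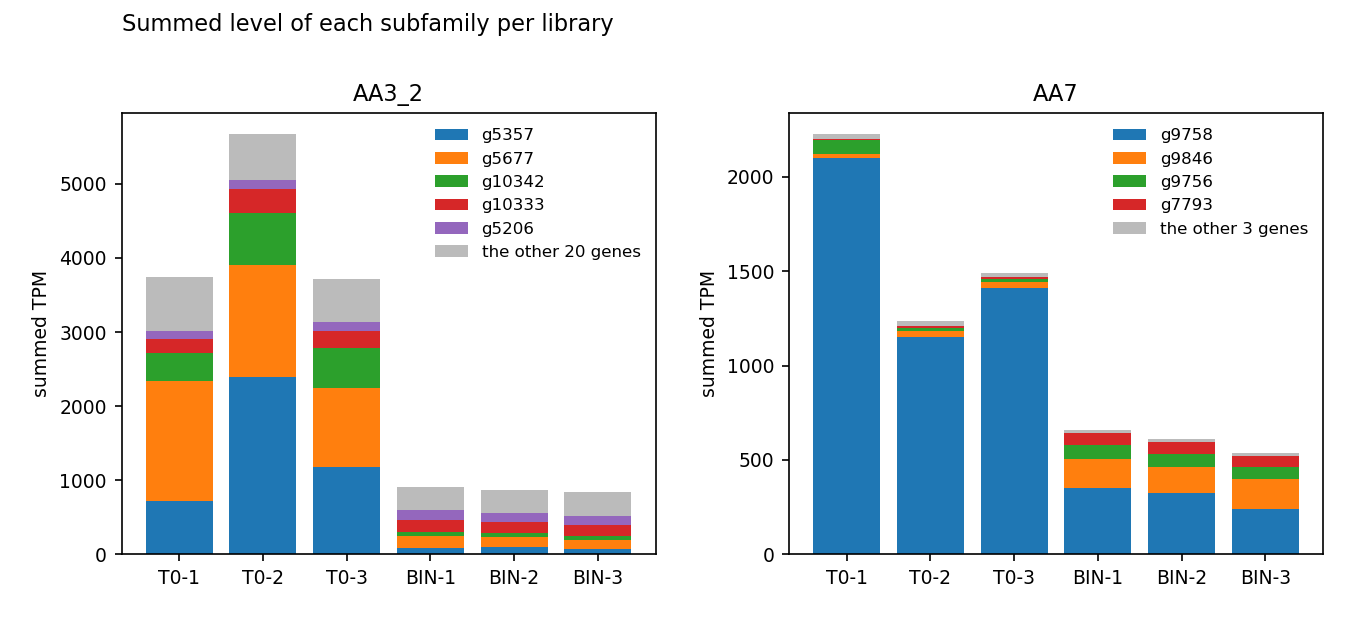
Summed TPM of the AA3_2 genes (left) and of the AA7 genes (right) in each library, divided by the genes that hold most of it, with the remaining genes in grey. The AA3_2 bars fall from a mean of 4374 TPM in T0 to 873 TPM in BIN, and g9758 alone fills most of each AA7 bar in T0.

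A few genes made up these sums. The 3 leading AA3_2 genes, g5677, g5357 and g10342, held 76.3 ± 4.59% of the AA3_2 sum in T0 and 31.6 ± 2.33% in BIN (SD, n = 3). Of the difference between the mean sums, g5357 accounted for 38.4%, g5677 for 35.9% and g10342 for 14.0%. In BIN the order of the genes was another, with g10333 first at 18.3% of the mean sum, then g5677 at 16.0% and g5206 at 14.5%. In AA7, g9758 held 94.2% of the mean sum in T0 and 50.9% in BIN. The other 6 AA7 genes together went the opposite way, from 95.9 ± 25.8 TPM in T0 to 296 ± 13.4 TPM in BIN (SD, n = 3).

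Among the leading AA3_2 genes, g5677, a GMC oxidoreductase of 1857 coding bases, was at 1624, 1512 and 1059 TPM in T0 replicates 1, 2 and 3 and at 159, 141 and 119 TPM in BIN. Its T0 libraries differed by up to 1.57 times on TMM-normalized counts, and all lay above its BIN libraries. The log2 fold change was -3.76 (SE 0.21, adjusted p = 4.19e-07), and its rank by level among the 10015 genes went from 90 to 1249. The gene g5357, of 1809 coding bases, was less even in T0 than g5677, at 719, 2389.6 and 1183 TPM, and was at 87.96, 94.4 and 78.2 TPM in BIN. Replicate 2 was the highest T0 library and replicate 1 the lowest, and the lowest still lay well above every BIN library. Its log2 fold change was -4.44 (SE 0.39, adjusted p = 3.41e-05), and its rank went from 87 to 2056. The level of g10342 was 368, 711 and 541 TPM in T0 and 54.6, 48.2 and 45.7 TPM in BIN. It was again highest in T0 replicate 2, with no overlap between the groups, and fell by 3.87 on the log2 scale (SE 0.20, adjusted p = 3.54e-07), from rank 304 to rank 3562.

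The genes g10333 and g5206, which led in BIN beside g5677, had much smaller fold changes. The gene g10333 was at 197, 314 and 235 TPM in T0 and at 168.5, 152 and 159.8 TPM in BIN. Its groups lay close to each other without overlap, and the log2 fold change was -1.06 (SE 0.13, adjusted p = 7.25e-05). This call was lost without T0 replicate 2, at -0.94, with library size alone, at -0.93, and on log2(TPM + 1) values, at -0.61. The gene g5206 was at 111.5, 131.5 and 119.6 TPM in T0 and at 135, 128 and 116 TPM in BIN, with overlapping groups, and was not called (log2 fold change -0.37, SE 0.09). On TMM-normalized counts its BIN libraries lay just below its T0 libraries.

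**Figure D3:**
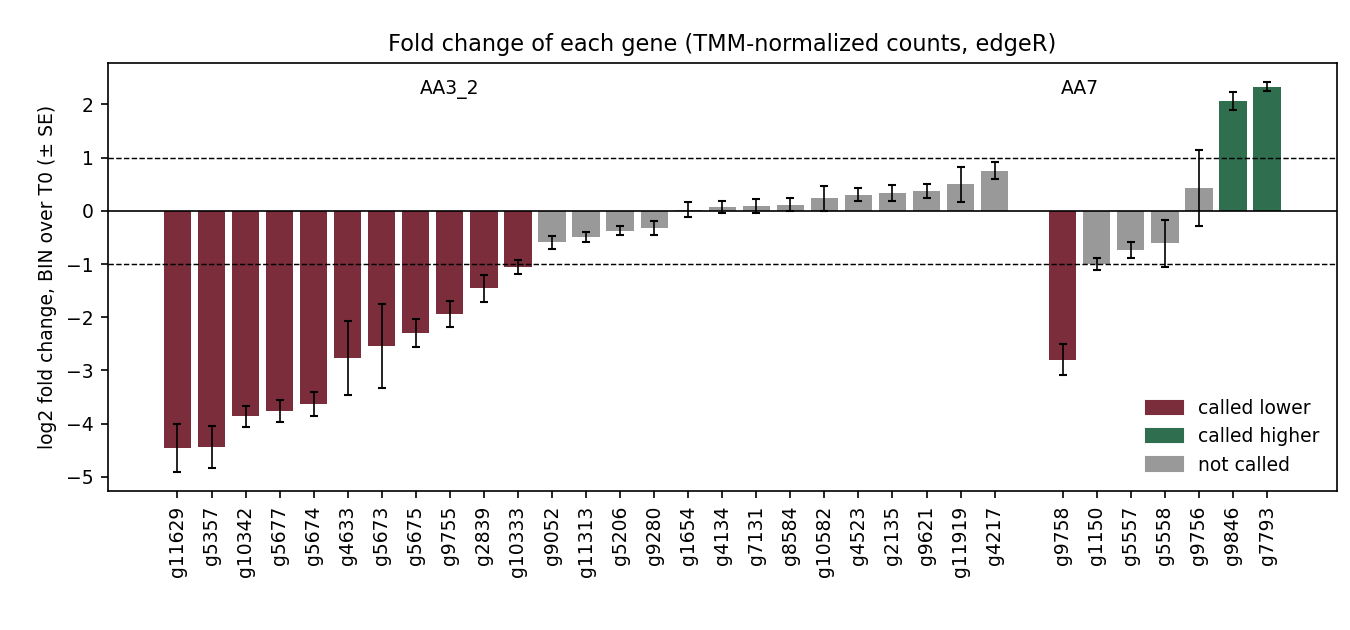
Log2 fold change of BIN over T0 for each AA3_2 gene (left) and AA7 gene (right), from TMM-normalized counts, with bars for the standard error and dashed lines at the 2-fold threshold. In AA3_2 all 11 called genes lie below 0, from -4.46 to -1.06, while the called AA7 genes lie at -2.80, 2.06 and 2.33.

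Of the 7 further AA3_2 genes that fell, 3 were abundant in T0. The gene g5674 was at 142.5, 92.5 and 111.5 TPM in T0 and at 14.4, 12.7 and 11.3 TPM in BIN, a log2 fold change of -3.63 (SE 0.23, adjusted p = 4.37e-06). It has the shortest coding length of the subfamily, 831 bases, where the median was 1848. The gene g5675 was at 185, 102 and 129 TPM in T0 and at 39.4, 39.3 and 37.9 TPM in BIN (log2 fold change -2.29, SE 0.26, adjusted p = 0.000138). The gene g9755 was at 142, 84.7 and 108 TPM in T0 and at 46.2, 39.4 and 34.5 TPM in BIN (log2 fold change -1.94, SE 0.24, adjusted p = 0.000268). For these 3 genes T0 replicate 1 was the highest library and replicate 2 the lowest of T0, and BIN lay below all of them.

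The other 4 were measured at lower levels. The gene g11629 was at 32.1, 106 and 56.9 TPM in T0 and at 4.26, 4.12 and 3.36 TPM in BIN, and its log2 fold change of -4.46 (SE 0.45, adjusted p = 0.000229) was the lowest of the 32 members. It was highest in T0 replicate 2 and lowest in T0 replicate 1, in the same order as g5357. The gene g2839 was at 16.2, 38.9 and 19.9 TPM in T0 and at 11.8, 12.3 and 12.2 TPM in BIN (log2 fold change -1.46, SE 0.26, adjusted p = 0.00171). Its groups did not overlap, and it was not called on log2(TPM + 1) values, at -0.89.

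The genes g4633 and g5673 had a single high library in T0. The gene g4633 was at 51.9, 12.4 and 19.8 TPM in T0 and at 5.97, 5.52 and 5.49 TPM in BIN, a log2 fold change of -2.77 (SE 0.69, adjusted p = 0.0175). Replicate 1 stood above the other T0 libraries, and without it the log2 fold change was -1.93. Without BIN replicate 1, 2 or 3 the gene was not called (adjusted p = 0.0617, 0.0592 and 0.0610). The gene g5673 was at 35.8, 7.76 and 10.03 TPM in T0 and at 4.79, 3.18 and 4.59 TPM in BIN, a log2 fold change of -2.55 (SE 0.79, adjusted p = 0.0352). Its high library was T0 replicate 1 as well, without which the log2 fold change was -1.501, and without BIN replicate 1, 2 or 3 it was not called (adjusted p = 0.0976, 0.107 and 0.0963). In both genes each T0 library lay above each BIN library.

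The 14 AA3_2 genes that were not called had log2 fold changes from -0.59 for g9052 to 0.75 for g4217. Their summed level was 254 ± 37.7 TPM in T0 and 319 ± 9.28 TPM in BIN (SD, n = 3), against 4120 ± 1084 and 554 ± 42.3 TPM for the 11 that fell. The sign depended on the processing for 7 of these 14 genes. On log2(TPM + 1) values g5206 and g9280 went from below 0 to above it, and with the trend on coding length removed g10582, g7131, g4134, g9621 and g1654 went from above 0 to below it. The exception closest to a rise was g4217, at 2.04, 3.11 and 3.00 TPM in T0 and at 6.69, 6.74 and 5.41 TPM in BIN, which was called higher on log2(TPM + 0.1) values, at 1.19, and in no other of the 15 alternative settings. Without regard to calls, the BIN libraries lay below the T0 libraries for 15 of the 25 AA3_2 genes and above them for 3, on TMM-normalized counts, where 38.0% of all genes had all BIN libraries below and 37.6% had them above.

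The called AA3_2 genes were mostly those with a high level before transfer. Of the 9 AA3_2 genes with at least 50 TPM in T0, 8 fell, or 88.9%, where 31.0% of all genes at that level were called lower. Of the 7 genes between 10 and 50 TPM, 3 fell, or 42.9%, against 10.4% of all genes there. None of the 9 genes below 10 TPM was called in either direction, and g4217 was again the exception on log2(TPM + 0.1) values. Of the 2500 genes at that level over all, 519 were called higher and 100, or 4.0%, lower. These bands were chosen after the values were seen, and the T0 level is itself part of the fold change, so the trend is a description.

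The most abundant AA7 gene, g9758, was at 2098, 1154 and 1408 TPM in T0 and at 350.2, 327 and 243 TPM in BIN. Every T0 library lay above every BIN library, with replicate 1 the highest of each group. The log2 fold change was -2.80 (SE 0.29, adjusted p = 4.55e-05), and its rank among the 10015 genes went from 65 to 521, so that it was still the highest of the 32 members in BIN. The AA7 genes g9846 and g7793 went up from low levels. The gene g9846 was at 19.7, 26.8 and 32.8 TPM in T0 and at 154, 137.5 and 157.5 TPM in BIN, with no overlap. It rose by 2.06 on the log2 scale (SE 0.17, adjusted p = 1.26e-05), from rank 4583 to rank 1170. The gene g7793 was at 7.45, 9.70 and 8.86 TPM in T0 and at 60.5, 59.15 and 58.0 TPM in BIN, and its libraries were close to each other within each group. It rose by 2.33 on the log2 scale (SE 0.08, adjusted p = 5.03e-08), from rank 7859 to rank 3034. Both rises were called in all 15 alternative settings. In BIN g9846 was at 149.8 ± 10.7 TPM and g7793 at 59.2 ± 1.26 TPM, against 307 ± 56.4 TPM for g9758 (SD, n = 3).

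Whether g9756 was called depended on a single library. It was at 75.3, 17.8 and 18.4 TPM in T0 and at 75.8, 69.7 and 61.4 TPM in BIN. In TPM, T0 replicate 1 thus lay at the level of the BIN libraries, and the other T0 libraries lay far below them. On TMM-normalized counts, the scale of the test, T0 replicate 1 lay above every BIN library and the other T0 libraries lay below them. The log2 fold change was 0.43 (SE 0.71, adjusted p = 0.619), and without T0 replicate 1 it was 1.52 (adjusted p = 7.29e-06) and the gene was called higher. It was also called on log2(TPM + 1) values, at 1.20. The gene g1150 lay just outside the threshold, at 9.16, 13.0 and 9.99 TPM in T0 and 7.40, 7.09 and 7.17 TPM in BIN (log2 fold change -0.998, SE 0.11, adjusted p = 3.21e-05). It was called lower without T0 replicate 1, at -1.06, without T0 replicate 3 or BIN replicate 1, each at -1.02, and with the trend on coding length removed, at -1.37. The last 2 AA7 genes, g5557 and g5558, had log2 fold changes of -0.74 (SE 0.15) and -0.61 (SE 0.44) and were not called.

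The members varied more between T0 libraries than most genes did. The highest T0 library was at least 2 times the lowest for 9 of the 32 members, or 28.1%, and for 3.39% of the 10015 genes, on TMM-normalized counts. Between the BIN libraries this held for 1 member, g11919, or 3.12%, and for 0.549% of all genes. The 9 members fell into 2 patterns. The AA3_2 genes g5673, g4633 and g5675 and the AA7 genes g9756, g5558 and g9758 were highest in T0 replicate 1 and lowest in replicate 2, with ratios of 2.12 for g9758 to 5.38 for g5673. The AA3_2 genes g5357, g11629 and g2839 were highest in T0 replicate 2 and lowest in replicate 1, with ratios of 2.06 for g2839 to 2.85 for g5357. For g9756 the T0 mean was 37.2 TPM with an SD of 33.1 TPM (n = 3).

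**Figure D4:**
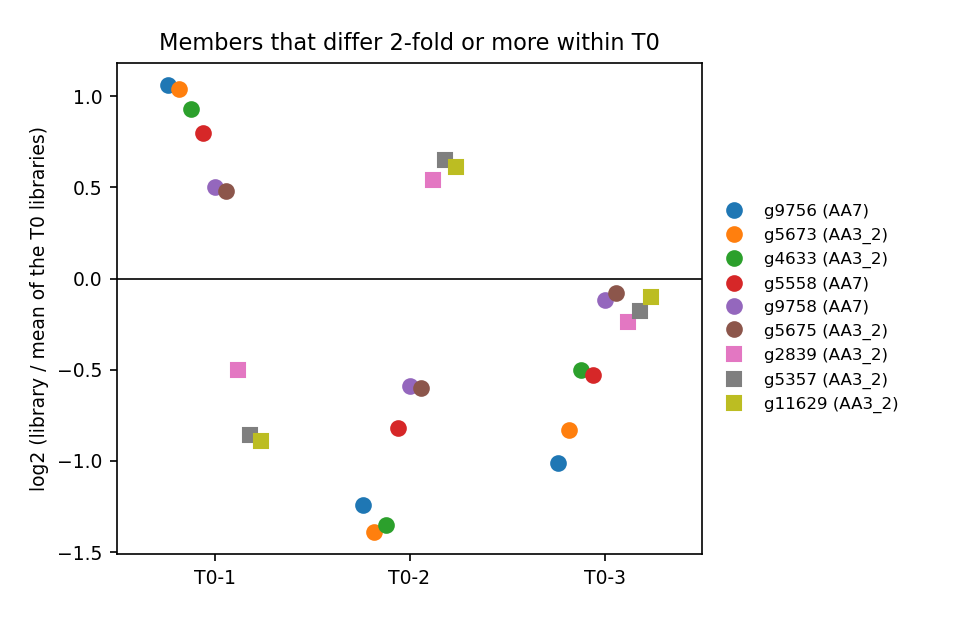
Log2 of the level in each T0 library over the mean of the T0 libraries, on TMM-normalized counts, for the 9 members whose highest and lowest T0 libraries differed at least 2-fold. Circles mark the 6 genes that were highest in T0 replicate 1 and squares the 3 genes that were highest in T0 replicate 2, and the markers are set side by side within a library so that they can be seen.

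The genes g11629 and g5357 kept a near constant ratio. The TPM of g11629 divided by that of g5357 was 0.0446, 0.0444 and 0.0481 in T0 replicates 1, 2 and 3 and 0.0485, 0.0437 and 0.0430 in the BIN replicates. Ranked by the SD of the log2 ratio to g5357 over the 6 libraries, g11629 was the first of 10014 genes, at 0.073, and the next gene, g7779, was at 0.167. The 6 libraries span both groups, so a fold change like that of g5357 by itself makes this SD small. Among the other members, g10342 was at rank 10 with an SD of 0.378 and g5677 at rank 53 with 0.681. The coding lengths of the pair are 1854 and 1809 bases. The counting program is not given in the sources used here, and whether the pair shared reads through like sequence was not tested. The AA7 pair g9756 and g9758 have the same coding length of 1479 bases and numbers close together, but their TPM ratio was not constant, at 0.0359, 0.0154 and 0.0131 in T0 and 0.2165, 0.2134 and 0.2526 in BIN.

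Several members carry neighbouring gene numbers, and 9 of the 32 lie within 2 numbers of another member. The numbers were taken as given, and positions in the assembly were not used here. The largest such group is made of g5673, g5674, g5675 and g5677, all AA3_2, with g5676 between them, a short gene of 474 coding bases with a GMC domain and no CAZy domain. All 5 fell, g5676 by 2.11 on the log2 scale (SE 0.14, adjusted p = 2.03e-06), and so did the 3 genes numbered before them, g5670 to g5672. In this run of 8 called genes the log2 fold changes were -3.76 to -1.05, and the gene that follows, g5678, was not called, at 0.00 (SE 0.07). The gene before the run, g5669, was just short of the threshold, at -0.95 (SE 0.14). The changes inside the run were not even, since g5674 and g5677 fell further than the genes beside them. Over all genes 14.5% were called lower, and how often such runs occur among them was not counted.

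**Figure D5:**
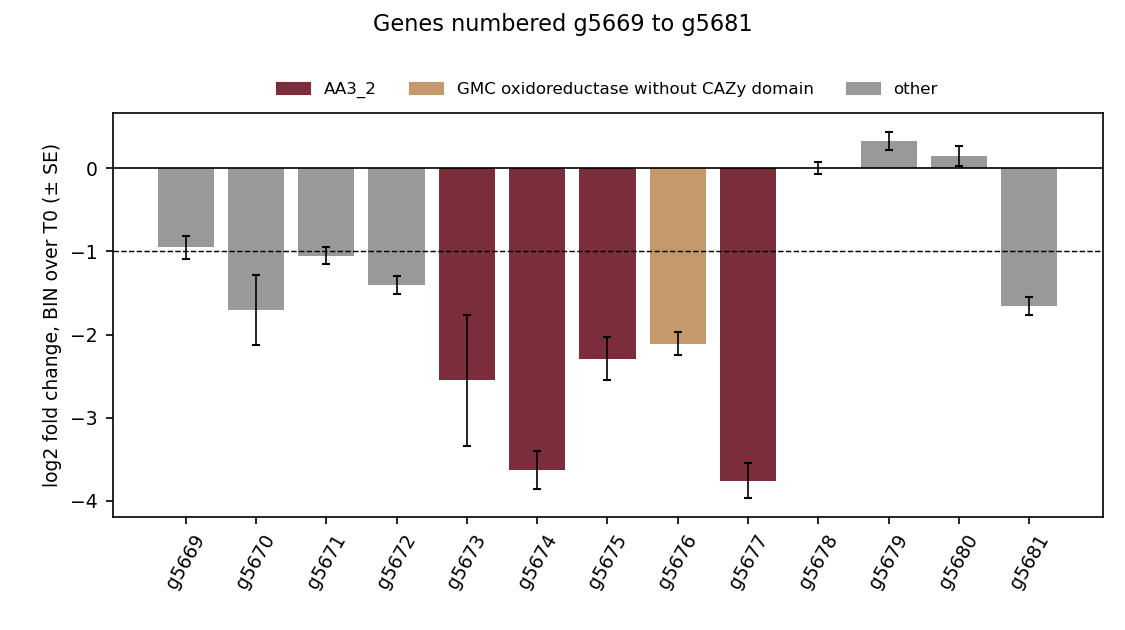
Log2 fold change of BIN over T0, with the standard error, for the genes numbered g5669 to g5681, in the order of their numbers. The AA3_2 genes are in dark red, the GMC gene g5676 without a CAZy domain is in light brown and other genes are in grey. The bars of the 8 genes from g5670 to g5677 pass the dashed line of a 2-fold fall.

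The genes g9755, g9756 and g9758 form another group of close numbers in which the members did not move together. The AA3_2 gene g9755 and the AA7 gene g9758 fell, while g9756 between them had 2 T0 libraries below its BIN libraries. The redox gene g9759 next to g9758 fell by 1.25 on the log2 scale (SE 0.22, adjusted p = 0.00125). The AA7 gene g7793 lies 2 numbers from g7795, an AA1_2 multicopper oxidase of the ferroxidase kind, which rose by 3.97 (SE 0.24), and the gene between them, g7794, was at 0.05 (SE 0.09).

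In coding length the AA3_2 genes were alike, with 15 of 25 between 1700 and 2000 bases, while g5674 was the shortest at 831 and g9621 the longest at 4242. The AA7 genes were between 1470 and 2334 bases. In the study's annotation of genes it called, a signal peptide, which directs a protein to secretion, is marked for 8 of the 11 AA3_2 genes that fell and for the 3 called AA7 genes. It is not marked for g5357, g11629 and g2839, the 3 genes that were highest in T0 replicate 2 among the 9 uneven members. That match holds only at the 2-fold cut. The genes g10342 and g10333 also fell and were highest in T0 replicate 2, by ratios of 1.66 and 1.37, and have it marked. The annotation is not given here for the uneven members g9756 and g5558, which were not called.

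Other enzymes that make, use or compete for hydrogen peroxide or share the GMC fold were taken from the same gene list. Of the 4 tested GMC or FAD-linked genes without a CAZy domain, g5676 fell and 0 rose. Of the 5 tested genes of AA3_3, the alcohol oxidases, and AA5_1, the copper radical oxidases that include glyoxal oxidases, 2 rose and 0 fell. Over all genes 11.3% were called higher and 14.5% lower, so a count of 0 is not unusual in lists as short as these. Both counts of 0 were also 0 with DESeq2 and at an unadjusted p under 0.05 in edgeR, but on log2(TPM + 0.1) values 1 GMC gene, g11314, was called higher. The AA3_3 gene g10793 was at 0.637, 0.918 and 0.557 TPM in T0 and at 38.5, 47.5 and 132 TPM in BIN, with BIN replicate 3 above the others (log2 fold change 6.26, SE 0.77, adjusted p = 0.00109), and the AA5_1 gene g8037 rose by 1.21 (SE 0.16), which was not called with glmTreat or with the trend on coding length removed. Of the other GMC subfamily, g1439 was not called, at 0.55 (SE 0.21). The AA5_1 gene g10078 was the most abundant of these 5, at 308 ± 35.5 TPM in T0 and 362 ± 21.5 TPM in BIN (SD, n = 3), and was not called (log2 fold change -0.20, SE 0.11). In BIN it lay above every AA3_2 gene, and in T0 below g5357, g5677 and g10342.

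Among the 17 tested catalases, peroxidases and AA2 genes, which consume hydrogen peroxide, 1 rose and 3 fell, where 11.3% of all genes rose and 14.5% fell. The catalase g9489 was at 148, 334 and 137 TPM in T0 and at 679.5, 737 and 1086 TPM in BIN (log2 fold change 1.62, SE 0.33, adjusted p = 0.00310), and the peroxidase g7863 fell by 1.61 (SE 0.15, adjusted p = 1.08e-05). The rise of g9489 was not called with glmTreat. Like g5357, g9489 was highest in T0 replicate 2 among the T0 libraries, as were 39.8% of all genes. Of the 5 tested genes of AA9 and AA14, the lytic polysaccharide monooxygenases, and of AA6, a quinone reductase, 3 rose and 1 fell. The AA6 gene g3022 rose by 3.91 (SE 0.19), the AA9 gene g4622 by 1.75 (SE 0.27) and the AA14 gene g2453 by 1.76 (SE 0.22), while the AA14 gene g2443 fell by 1.05 (SE 0.09), close to the threshold, and lost its call in 5 of the 15 alternative settings, among them without T0 replicate 3, at -0.98. In BIN g3022 was at 2325 ± 260.2 TPM (SD, n = 3), more than the summed 873 TPM of the 25 AA3_2 genes, whereas in T0, at 114 ± 20.4 TPM, it was below their sum in every library.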

How the data were processed

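Per the labels and the study's methods, RNA was sequenced in 3 T0 and 3 BIN libraries. The authors trimmed reads (Trimmomatic 0.32 is named in the submitters' processing notes), removed rRNA with SortMeRNA, mapped the reads to the genome of this strain with TopHat2 and deposited unnormalized whole-number counts for each predicted gene. The authors also deposited TPM values, which are these counts per coding length scaled to 1000000. The counting program is not given in the sources used here. Coding lengths came from counts over TPM and were whole within 1e-06 bases, and 99.3% were multiples of 3.

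BIN was compared with T0 over all 10015 genes with edgeR 4.0.16 in R 4.3.3 (TMM, glmQLFit with robust estimation, glmQLFTest, Benjamini-Hochberg), with calls at adjusted p up to 0.05 and absolute log2 fold changes from 1. Permuting 3 against 3 libraries cannot give p below 0.1, so no single-value test was used. Sums of TPM had no test. On simulated counts with 200 changed genes, 97.8% of those changed by 1.5 on the log2 scale and 100.0% of those changed by 2 were recovered, with 0 false calls. The simulation gave every gene the same dispersion between libraries. Its rates therefore do not cover members as uneven in T0 as g4633, g5673 and g9756. The 15 alternatives were DESeq2 1.42.0, RLE, library size alone, no filter, glmTreat, a replicate block, each library left out, limma 3.58.1 on log2 TPM with pseudocounts of 1 and 0.1, and a lowess trend (span 0.3) on coding length removed. The filter on low counts removed no gene of the 10015, so the setting without it repeated the main fit and could not differ.

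Genes named were all called members, the leading members by mean TPM, those near the threshold, and called genes of short related lists or the largest changes of longer ones. Members and lists were chosen with earlier results of these data known. Columns with the authors' own comparisons were not used. No sequence of this strain was used here.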

Additional observations from a re-analysis of the deposited data

How the results depend on the processing

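No called member changed direction in any of the 15 settings. Of 480 comparisons of a member with its call in an alternative setting, 456 were the same, and 25 of the 32 members, 10 of the 14 called ones among them, had the same call in all 15 settings. These counts include the setting without a filter, which repeated the main fit. The count of AA3_2 genes that fell, 11, was 7 with glmTreat, which lost g10333, g2839, g4633 and g5673, and 9 to 11 with a library left out. The count of AA3_2 genes that rose, 0, was 1 on log2(TPM + 0.1) values (g4217). The count of AA7 genes that fell, 1, was 2 with the trend on coding length removed (g1150) and 1 to 2 with a library left out, and that of AA7 genes that rose, 2, was 2 to 3 with a library left out. Over all genes, 1134 higher and 1457 lower became 737 and 916 with glmTreat, 1439 and 1185 with library size alone, 2138 and 746 on log2(TPM + 1) values, and 2411 and 783 on log2(TPM + 0.1) values, so that more genes were higher than lower with library size alone and on TPM. The median of all genes, 0.00, was 0.13, 0.40 and 0.43 on these 3 scales, and the cause of the other changes was not tested. With a library left out they were 1095 to 1201 and 1412 to 1549. The ratio of the summed levels, T0 over BIN, was 6.466 in TMM-normalized CPM and 6.708 in TMM-normalized counts per kilobase for AA3_2, and 3.713 and 3.767 for AA7, and with a library left out 4.268 to 5.386 and 2.261 to 3.082. The share of the 3 leading AA7 genes in BIN, 87.2%, was 85.9% in TMM-normalized CPM. With a library left out the shares of the 3 leading genes were 73.7 to 78.1% (AA3_2, T0), 30.7 to 32.9% (AA3_2, BIN), 97.5 to 98.3% (AA7, T0) and 86.8 to 87.7% (AA7, BIN).

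The deviations of libraries with the same replicate number correlated at 0.0351, 0.00881 and -0.101, so no shared deviation was seen. That cannot settle whether libraries with the same number came from the same preculture. With the replicate block, 11 AA3_2 genes fell, as without it, and 1146 genes rose and 1441 fell over all. The main limits are 3 libraries a group, T0 libraries that differed by up to 5.38 times in a member, counts as low as 24 for the lowest members, and reads that near-identical genes may share. The lowest count of any gene in the count table was 10, 15 and 16 in T0 replicates 1, 2 and 3, and 12, 12 and 14 in the BIN replicates. Genes with fewer counts in any library are thus absent, also from the shares given over all genes. The related lists lack some listed genes (2 of the 6 GMC or FAD-linked genes and 1 of the 3 AA3_3 genes), while no AA3_2 or AA7 gene is missing.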

Other observations

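The neighbours by number of other AA3_2 genes that fell were described after their values were seen. Over all genes 14.5% were called lower. All 6 genes from g5353 to g5358 fell, g5357 furthest, at -4.44, and g5358 least, at the threshold. Next to g5357, the cytochrome P450 gene g5356 went from 357 to 81.0 TPM (log2 fold change -2.57, SE 0.11), and g5355, which has no annotation in the gene list, from 731 to 85.2 TPM (-3.52, SE 0.15). The 4 genes from g10339 to g10342 fell as well, from -3.87 to -2.66, and g10339 is a cytochrome P450 gene that went from 123 to 13.3 TPM (-3.66, SE 0.16). Not every P450 gene numbered near an AA3_2 gene that fell was called. The P450 gene g10337, between g10333 and g10342, was at 0.04 (SE 0.12), and g9753, near g9755, at 0.36 (SE 0.28). Cytochromes P450 are heme monooxygenases that act on many small molecules in fungi. Each run was taken to end before a gene that was not called (g5359, at -0.09, and g10343, at -0.67). The run from g5353 starts at the edge of the genes examined. Among the genes numbered close to g10333 the changes were mixed. There g10330, g10332 and g10334 fell, at -1.16, -3.25 and -2.11, while g10331 and g10335 were not called, at 0.39 and 0.36.

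Near g11629, the P450 gene g11632 fell by 1.16 (SE 0.12) on the log2 scale, far less than g11629 at -4.46. The AA7 gene g9846, which rose, stands between genes that fell, g9845 at -1.48 (SE 0.11) and g9847 at -1.74 (SE 0.23). The latter was abundant, at 1055 TPM in T0 and 435 TPM in BIN on average. Why neighbours by number moved alike in some places and not in others was not tested.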
